A study of Mus musculus with 3 samples.

Results

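Levels of 35 cell cycle and DNA replication genes were read in chromatin-associated RNA of mouse bone marrow-derived macrophages. The members were chosen by symbol from the gene quantification tables of all 3 libraries, and all 35 were found among 55536 genes. They fall into 10 replication genes, 15 mitotic genes and a G1 group of 10, which holds the D cyclins, their kinases, kinase inhibitors, Rb1 and E2f1. The cells were primary macrophages grown from bone marrow of C57BL/6J mice, and the labels give neither age nor sex. Each library came from cells given Lipid A, the part of lipopolysaccharide that TLR4 recognises, at 100 ng/ml for 12 h, kept free of it for 12 h, and given 100 ng/ml again for 20 min. RNA of the chromatin fraction, which holds transcripts still being made or processed, was depleted of ribosomal RNA and sequenced. The 3 libraries, biological replicates 1, 2 and 3, form 1 group, so no value below is an effect of Lipid A and no test between groups could be made. The labels enter 1 donor for all of them, so part of the spread may be technical.

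The cell cycle is driven by cyclins, which bind and activate cyclin-dependent kinases. In G1, D cyclins with Cdk4 or Cdk6 phosphorylate the retinoblastoma protein Rb1 and so free E2F factors, which switch on replication genes. Inhibitors of the Cdkn1 and Cdkn2 families hold these kinases back. Mitotic genes are switched on later, largely through the MuvB complex, which binds a promoter element called the cell cycle homology region (CHR), often beside CCAAT boxes. Macrophages grown from marrow divide in response to CSF1, and stimulation through TLR4 is known to slow this division.

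The promoters are shown first because E2F and CHR elements are the sequences through which replication and mitotic genes are known to be switched on. Promoter windows from RefSeq (GRCm38.p6), 250 bases before to 50 bases after a start site, were used for 28 of the 35 members, in 32 windows, and a member counts where any of its windows holds the letters. Windows of Ccna2, Rb1, Tpx2, Aurkb, Ccnd2, Ccnd1 and Mcm4 were not analysed here. The windows were searched on both strands for the E2F letters TTTCCCGC, TTTCGCGC, TTTGCCGC and TTTGGCGC, for the CHR letters TTTGAA and for CCAAT. In the sequences below, written 5′ to 3′ along the gene's strand and ending before its first annotated base, capitals mark E2F letters in Mcm5 and Mcm6, CHR letters in Mki67 and Top2a, and both in Cdk1.
Mcm5 (chr8:75109259-75109508, plus strand): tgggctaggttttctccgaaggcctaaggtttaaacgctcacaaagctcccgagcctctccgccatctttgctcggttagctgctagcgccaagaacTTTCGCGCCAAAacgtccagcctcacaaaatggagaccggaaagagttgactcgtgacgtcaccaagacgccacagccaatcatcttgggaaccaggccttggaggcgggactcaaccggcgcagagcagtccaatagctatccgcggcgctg
Mcm6 (chr1:128359706-128359955, minus strand): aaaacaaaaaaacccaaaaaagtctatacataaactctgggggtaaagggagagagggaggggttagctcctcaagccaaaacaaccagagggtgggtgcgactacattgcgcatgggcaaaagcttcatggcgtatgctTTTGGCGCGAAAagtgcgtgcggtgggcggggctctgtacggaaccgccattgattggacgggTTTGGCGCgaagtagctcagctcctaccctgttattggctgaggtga
Cdk1 (chr10:69352939-69353162, minus strand): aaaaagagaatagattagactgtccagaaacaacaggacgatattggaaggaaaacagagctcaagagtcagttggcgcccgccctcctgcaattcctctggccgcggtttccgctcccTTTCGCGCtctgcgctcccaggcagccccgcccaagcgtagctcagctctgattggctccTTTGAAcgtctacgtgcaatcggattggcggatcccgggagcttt
Mki67 (chr7:135716380-135716629, minus strand): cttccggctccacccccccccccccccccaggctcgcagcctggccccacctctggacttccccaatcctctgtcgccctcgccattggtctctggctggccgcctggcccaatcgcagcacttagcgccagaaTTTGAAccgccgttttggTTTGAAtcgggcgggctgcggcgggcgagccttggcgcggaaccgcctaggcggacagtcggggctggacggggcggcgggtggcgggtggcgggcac
Top2a (chr11:99024190-99024439, minus strand): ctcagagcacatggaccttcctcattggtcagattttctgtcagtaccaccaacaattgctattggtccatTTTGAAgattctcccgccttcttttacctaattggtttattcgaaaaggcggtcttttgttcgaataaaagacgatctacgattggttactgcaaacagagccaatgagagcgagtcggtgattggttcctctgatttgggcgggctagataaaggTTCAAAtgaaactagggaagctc

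E2F letters lay in 4 of 9 replication members with a window (Mcm3, Mcm5, Mcm6 and Mcm7), in 1 of 12 mitotic members (Cdk1) and in 0 of 7 G1 members. Among all 32851 promoter windows 2.26% held them. In Mcm5 and in the distal pair of Mcm6 the capital run is 2 matches on opposite strands that overlap, TTTCGCGC and TTTGGCGC. CHR letters lay in 8 of 12 mitotic members (Aurka, Ccnb2, Cdk1, Cenpf, Kif11, Mki67, Plk1 and Top2a), in 2 of 9 replication members (Cdc45 and Mcm2) and in 0 of 7 G1 members, against 17.9% of all windows. CCAAT was found in 8 of 9 replication, 11 of 12 mitotic and 3 of 7 G1 members, against 37.4% of all windows. Cdk1, the kinase that drives entry into mitosis, held E2F letters from base -131 and CHR letters from bases -71 and -15, counted back from the RefSeq start site; the last of these lies beyond the printed stretch. A match describes letters in these windows and was not tied to binding of a factor. Only exact letters were searched, so a window without a match may still hold a site with other letters. Members were counted by gene, 4 of them with 2 windows, while the shares of all windows count single windows.

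Expected counts totalled 13953780, 24222661 and 16571228 for replicates 1, 2 and 3. Their starting RNA was 1 µg, 250 ng and 500 ng in that order, so starting amount, depth and library cannot be told apart. Levels are given in TPM, which is scaled for transcript length and can be compared between genes of a library. Differences between libraries are given in CPM, counts scaled to library size with TMM factors, because protein-coding genes took unequal parts of the TPM. Over 9537 protein-coding genes, the median ratio to a gene's own geometric mean TPM was 1.09, 0.866 and 1.06 in replicates 1, 2 and 3. All 8 macrophage markers reached 1 TPM in every library, from Itgam at 33.9 ± 7.76 TPM to Adgre1 at 334 ± 54.4 TPM (mean ± SD, n = 3 here and below). None of 29 markers of myeloid progenitors, neutrophils, lymphoid, erythroid or stromal cells reached 1 TPM in every library of the gene table. By the second set of estimates, 5 of them did: Cd3d at 13.4, 13.0 and 15.7 TPM, and Cd34, Mpo, Myb and Col1a1 between 1.49 and 3.40 TPM. Cd3d, Cd34 and Mpo are named after their values were seen, and the near absence of other cell types' markers thus holds for the gene table alone. In the gene table the highest of each list were Myb at 1.63, Ngp at 0.813, Col1a1 at 0.210, Cd79a at 0.0867 and Klf1 at 0.0500 TPM. S100a8, Gata2, Ncr1 and Hbb-bs, the lowest of their lists, had 0 counts in every library, and Pdgfra, the lowest stromal marker, had 0, 0 and 1. A count of 0 allows up to 3 counts, or 0.220 CPM in the shallowest library.

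G1 genes were the most abundant of the 3 classes and mitotic genes the least. The median of log2(TPM + 1) was 3.10 ± 0.24 over the 10 G1 members, 2.27 ± 0.30 over the 10 replication members and 1.19 ± 0.07 over the 15 mitotic members. Over all 22028 protein-coding genes it was 0.72 ± 0.07. In TPM, the median member stood at 8.06 in the G1 class, 4.08 in the replication class and 1.19 in the mitotic class. In every library the order of the class medians was G1, replication, mitotic. The G1 median exceeded the mitotic median by 2.09, 1.69 and 1.98 log2 units in replicates 1, 2 and 3, or 1.92 ± 0.20. It exceeded the replication median by 1.00, 0.25 and 1.26, or 0.84 ± 0.53, so that this gap was smallest in replicate 2. The replication median exceeded the mitotic one by 1.09, 1.45 and 0.71, or 1.08 ± 0.37. A level of at least 1 TPM throughout was reached by 8 of 10 replication, 8 of 15 mitotic and 8 of 10 G1 members, 24 of 35 in all (68.6%), against 45.2% of protein-coding genes. In bulk RNA, fewer dividing cells and less RNA per dividing cell cannot be told apart.

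Where genes overlap, the source of a read can be uncertain, and the sources used here do not say whether counting used the strand. Of the 35 members, 16 overlap another annotated gene, 7 of them a protein-coding one. Mcm7 meets Ap4m1 (18.9 TPM), Cdc45 meets Ufd1 (61.7 TPM), Ccna2 meets Exosc9 (13.5 TPM) and Cdk4 meets Tspan31 (10.8 TPM), each on the opposite strand. Without the 16 overlapping members the G1 class keeps only Cdkn1b, Cdkn2c and E2f1, while the replication class keeps 8 members. The G1 median lead then fell to 0.12 over the replication class and to 1.28 over the mitotic class. Rb1, Cdkn1a, Cdk6 and Cdk4, the highest G1 members, were among those left out, so the lead depends on which members are counted. Whether reads of overlapping genes made part of it was not tested.

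**Figure D1:**
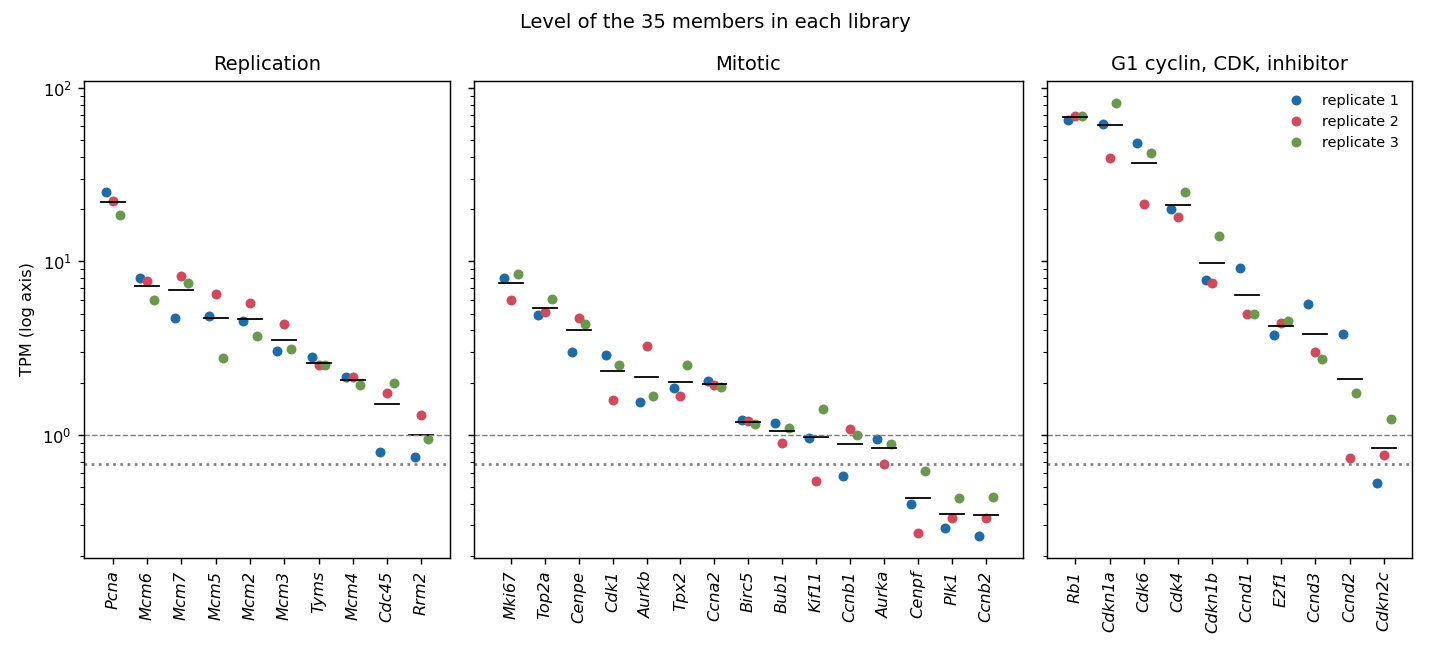
TPM of each member (log axis) in replicates 1, 2 and 3 (points) with its mean (bar), by class and ordered by mean. The dotted line is the median protein-coding gene and the dashed line 1 TPM; 4 mitotic members stayed under 1 TPM in every library, while Rb1 and Cdkn1a lead at means of 67.8 and 61.2 TPM.

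Among replication genes, the sliding clamp Pcna led. Pcna (chr2:132249162-132253314, mm10), which holds DNA polymerases on the template, was at 25.0, 22.3 and 18.6 TPM in replicates 1, 2 and 3, a mean of 22.0 ± 3.17. No other replication member reached 9 TPM in any library, and the clamp's range did not overlap theirs. The 6 subunits of the MCM helicase, which unwinds DNA at the fork and is assembled in equal numbers, spanned 3.49-fold. Mcm6 (chr1:128331590-128359664) held the largest share of their summed TPM at 25.1 ± 3.72%, with 8.02, 7.70 and 5.96 TPM. Mcm7 followed with 23.7 ± 6.38%, and the ranges of these 2 overlapped. Mcm4 was lowest with 7.24 ± 0.915%, at 2.14, 2.14 and 1.93 TPM, the narrowest spread among the 6. Mcm2, Mcm5 and Mcm3 lay between, at means of 4.65, 4.71 and 3.51 TPM. The second transcript table, another set of deposited estimates for the same libraries, gave shares of 25.3% for Mcm6 and 7.77% for Mcm4. Tyms, the enzyme that makes thymidylate, stood at 2.79, 2.54 and 2.51 TPM. Cdc45, which joins the MCM ring to form the active helicase, was at 0.800, 1.74 and 1.99 TPM. Rrm2, the ribonucleotide reductase subunit made for S phase, was lowest of the class at 0.740, 1.30 and 0.940 TPM.

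In the gene table, mitotic genes were led by Mki67, Top2a and Cenpe, which act on chromosomes. Mki67 (chr7:135689784-135716361), whose protein coats mitotic chromosomes and is used as a proliferation marker, was at 8.05, 5.96 and 8.47 TPM, a mean of 7.49 ± 1.34. Top2a, the topoisomerase that untangles sister chromatids, was at 4.93, 5.11 and 6.04 TPM. Cenpe, the kinetochore motor that gathers chromosomes at the spindle equator, was at 3.02, 4.74 and 4.35 TPM. Values of Top2a and Cenpe did not overlap, and the lowest library of Mki67 lay just under the highest of Top2a. A middle group of Cdk1, Aurkb, Tpx2 and Ccna2 had means of 2.33, 2.16, 2.01 and 1.96 TPM, with overlapping libraries. Aurkb is the kinase of the chromosomal passenger complex, Tpx2 activates its relative Aurka at the spindle, and Ccna2 is the cyclin of S phase and G2. Birc5 and Bub1, a passenger subunit and a spindle checkpoint kinase, had means of 1.19 and 1.05 TPM. Around or under 1 TPM were the spindle motor Kif11 at 0.970, the mitotic cyclin Ccnb1 at 0.887 and the spindle pole kinase Aurka at 0.840. The lowest were the kinetochore gene Cenpf at 0.430, the mitotic kinase Plk1 at 0.350 and the cyclin Ccnb2 at 0.343 TPM. These last 3 lay under 1 TPM in every library of the gene table, with Aurka the only other mitotic member to do so. Counts behind them were few. Ccnb2 had 4, 11 and 8 counts, Plk1 5, 17 and 12, and Cenpf 18, 28 and 54. The order of the mitotic members depends on the estimates. In the second table Cdk1 led at 13.9 TPM, ahead of Top2a at 9.72, Birc5 at 8.59 and Mki67 at 7.68 TPM. There Ccnb2 was the only mitotic member under 1 TPM in every library.

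The G1 class held the widest range of levels. Rb1 (chr14:73183673-73325822), the gate that restrains E2F, was the highest of all 35 members at 65.6, 69.0 and 68.9 TPM, a mean of 67.8 ± 1.92 and the 95.9th percentile of protein-coding genes. Rb1 overlaps Rcbtb2 and Lpar6 on the opposite strand, which had 23.0 and 22.0 TPM of their own. Of the TPM of Rb1, 51.4 ± 8.73% lay on transcripts annotated as retaining an intron, against 9.62% of its counts. Its 1 protein-coding transcript was at 33.4, 26.6 and 36.3 TPM. Cdkn1a (chr17:29090976-29100727), which encodes the inhibitor p21, was at 61.9, 39.4 and 82.2 TPM, a mean of 61.2 ± 21.4. Its range took in that of Rb1, so their order does not hold beyond the spread. Protein-coding transcripts held 93.4 ± 0.873% of the TPM of Cdkn1a. Cdkn1a shares 1046 bases with AC167363.2, an unconfirmed transcript of the opposite strand listed at 64.5 TPM.

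The 3 kinase inhibitors among the members were very unequal. Cdkn1a held 85.1 ± 2.80% of their summed TPM, Cdkn1b (p27) 13.7 ± 2.38% and Cdkn2c (p18) 1.20 ± 0.423%. Cdkn1b was at 7.77, 7.47 and 14.0 TPM, high in replicate 3, and Cdkn2c at 0.530, 0.760 and 1.23 TPM. Of the kinases that pair with D cyclins, Cdk6 (chr5:3341485-3531008) held 62.4 ± 8.18% and Cdk4 37.6 ± 8.18%. Cdk6 was at 48.0, 21.3 and 41.9 TPM and Cdk4 at 20.1, 18.0 and 25.0 TPM, so Cdk6 was above Cdk4 in each library, by little in replicate 2. Cdk6 spans 190 kb and contains the antisense genes Gm17590 and Gm42435, at 9.92 and 7.55 TPM. Among D cyclins, Ccnd1 held 53.1 ± 4.02%, Ccnd3 31.2 ± 2.83% and Ccnd2 15.7 ± 6.43%, the same order in each library. In the second table Ccnd2 held 30.8 ± 6.85%, above Ccnd3 at 27.5 ± 3.86%, so the order of these 2 depends on the estimates. Ccnd1 was at 9.15, 4.98 and 4.98 TPM and overlaps LTO1, which had 22.2 TPM. E2f1, an activating E2F factor, was at 3.77, 4.42 and 4.55 TPM.

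The deposited bounds on TPM, whose level is not stated, show how well single levels were fixed. The upper bound was a median of 1.34 times the lower in the G1 class, 1.86 times in the replication class and 3.02 times in the mitotic class. Ccnd2 stood apart at 84.3 times, with 3.80 TPM between bounds of 3.55 and 171 in replicate 1. The TPM of Ccnd3 lay below its bounds in all 3 libraries, for instance 5.64 TPM against 7.56 to 16.0 in replicate 1. Such a gap in every library was seen for 0.905% of the 9949 protein-coding genes of at least 1 TPM.

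Replication genes were highest in replicate 2. Of the 35 members, 23 had a mean of at least 50 counts and were compared between libraries: 8 replication, 6 mitotic and 9 G1 members. All 8 replication members were highest in replicate 2, against 39.6% of 9540 protein-coding genes. Of the mitotic members 3 of 6 were highest there, and of the G1 members 1 of 9, E2f1. The 2 replication members with fewer counts, Cdc45 and Rrm2, were highest in replicate 2 as well. The summed CPM of the 10 replication members was 71.9, 108 and 66.5, while that of the mitotic members was 119, 132 and 133 and that of the G1 members 486, 387 and 512. Replicate 2 was thus the highest library for the replication sum and the lowest for the G1 sum.

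The scale matters for this pattern. In deposited TPM only 4 of the 8 replication members were highest in replicate 2, and in TPM scaled to the median protein-coding gene 8 of 8 were. Pcna shows the difference: its TPM was highest in replicate 1, and its CPM was 17.5, 19.1 and 13.0. By the second transcript table, 7 of 9 replication members that passed the filter were highest in replicate 2.

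The median log2 difference of replication members was -0.57 between replicate 1 and replicate 2 and -0.60 between replicate 3 and replicate 2. Over all protein-coding genes these medians were -0.04 and -0.01. A value above 0 was found for 0 of 8 members in either comparison, against 45.9% and 48.4% of protein-coding genes. Lower in replicate 1 than in replicate 2 by at least 1.5-fold were 4 of 8 replication members (Mcm2, Mcm3, Mcm5 and Mcm7), against 9.10% of protein-coding genes. Lower in replicate 3 than in replicate 2 were also 4 of 8 (Mcm2, Mcm3, Mcm5 and Mcm6), against 3.85%. Between replicates 1 and 3 the median was 0.15, 5 of 8 were above 0 against 45.0%, and the calls were 1 higher (Mcm5) and 1 lower (Mcm7), where 5.06% and 5.10% of protein-coding genes were called. These are differences between single libraries and were not tested.

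Mcm5 (chr8:75109569-75128439), with 92, 267 and 60 counts, gave 6.56, 11.3 and 3.69 CPM, and replicate 2 was 3.05 times replicate 3 (95% exact binomial interval 2.30 to 4.11). Mcm2, with 106, 379 and 101 counts, gave 7.56, 16.0 and 6.21 CPM and was 2.11 times higher in replicate 2 than in replicate 1 (1.70 to 2.65). In both genes replicate 2 stood clear of the other libraries beyond counting error. Mcm7 was at 4.14, 9.79 and 6.58 CPM, with replicate 2 at 2.37 times replicate 1 (1.77 to 3.21). Mcm4 and Tyms were flatter, at 6.06, 6.87 and 5.65 CPM and at 4.57, 6.32 and 5.96 CPM. The interval of Mcm4 for replicate 2 over replicate 1 ran from 0.867 to 1.49, so for Mcm4 a difference was not detectable at this depth. Intervals for replicate 2 also took in 1 for Pcna over replicate 1 (0.928 to 1.27) and for Tyms over replicate 3 (0.816 to 1.38). They stayed above 1 for Pcna over replicate 3 (1.24 to 1.73) and for Tyms over replicate 1 (1.03 to 1.89). These intervals cover counting error only.

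Replicate 2 was highest for both main kinds of replication transcript. Protein-coding transcripts of the class summed to 50.8, 75.6 and 48.4 CPM and retained-intron transcripts to 18.8, 29.8 and 14.6 CPM. Replicate 2 was 1.49 and 1.56 times the others for the former, and 1.58 and 2.04 times for the latter.

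**Figure D2:**
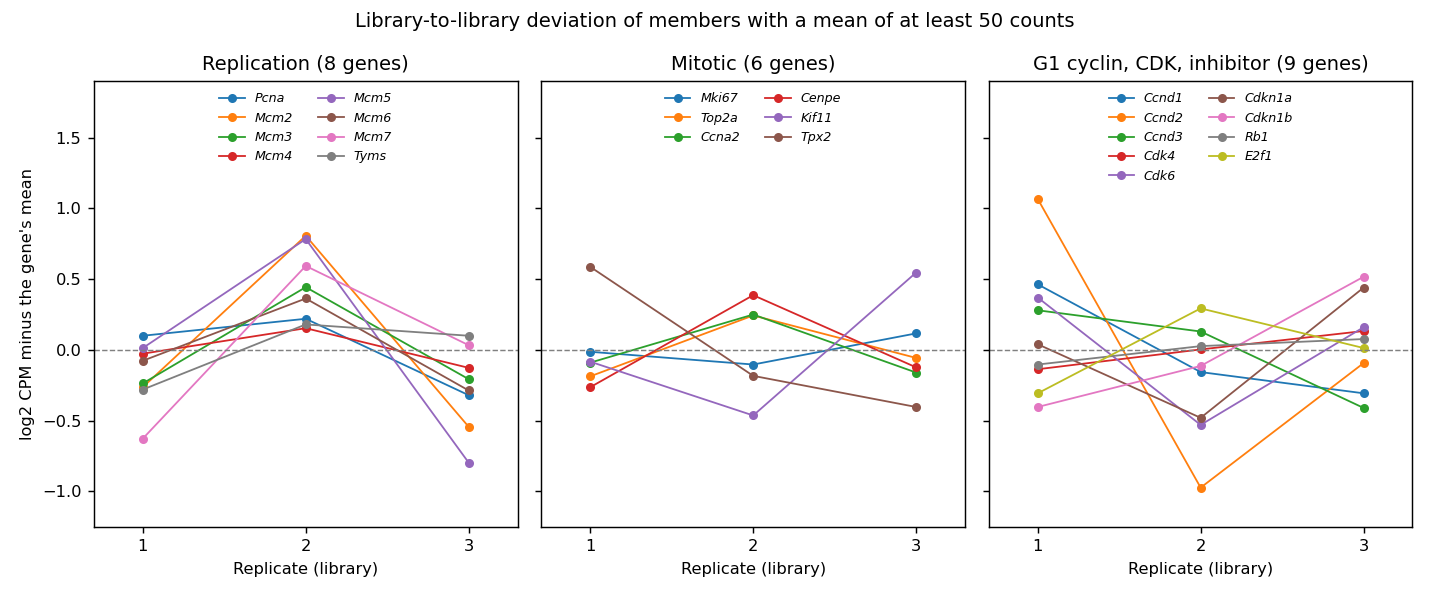
log2 CPM of each member minus its own mean over the 3 libraries (vertical axis) by replicate (horizontal axis, no order implied), for the 23 members with a mean of at least 50 counts; lines join the values of a gene. All 8 replication members peak in replicate 2, while Ccnd2, Cdk6 and Cdkn1a of the G1 class are lowest there.

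Mitotic members were mixed between libraries. Their median differences were -0.12 between replicates 1 and 2, -0.13 between replicates 1 and 3 and -0.26 between replicates 3 and 2. The last of these turned positive, to 0.08, in TPM scaled to the median protein-coding gene. Mki67 was flat at 66.6, 62.4 and 72.8 CPM from 934, 1481 and 1185 counts. Cenpe was at 19.5, 30.6 and 21.5 CPM, with replicate 2 at 1.57 times replicate 1 (1.36 to 1.81), and Top2a at 12.0, 16.1 and 13.1 CPM. Kif11 ran the other way at 3.21, 2.45 and 5.04 CPM, with replicate 3 at 2.06 times replicate 2 (1.45 to 2.94). Tpx2 was highest in replicate 1, at 5.49, 3.16 and 2.70 CPM. Cenpf, below the count filter, was at 1.28, 1.18 and 3.32 CPM, high in replicate 3.

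G1 and replication members varied more between libraries than the median gene, the former in several directions. The median SD of log2 CPM was 0.41 in the G1 class, 0.36 in the replication class and 0.28 in the mitotic class, against 0.19 over protein-coding genes. The order of the first 2 does not hold throughout. The replication value was the higher, at 0.50 against 0.43, with a mean of at least 10 counts or no filter, at 0.43 against 0.38 without replicate 1 and at 0.42 against 0.35 without replicate 3. Without replicate 2 the mitotic value fell to 0.10. Higher in replicate 3 than in replicate 2 by at least 1.5-fold were 4 of 9 G1 members (Ccnd2, Cdk6, Cdkn1a and Cdkn1b), against 5.10% of protein-coding genes. Higher in replicate 1 than in replicate 2 were 3 of 9 (Ccnd1, Ccnd2 and Cdk6), against 8.53%, and E2f1 was lower by that fold. All 4 members higher in replicate 1 than in replicate 2, Tpx2 included, overlap another gene, while 10 of the 23 compared members overlap none. Ccnd1 meets LTO1 at 22.2 TPM and Cdk6 antisense genes at 9.92 and 7.55 TPM. Tpx2 meets only Mir5622 at 0 TPM, and Ccnd2 antisense genes at 0 and 0.223 TPM. A part of overlap in these differences was not tested.

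Ccnd2 had the largest spread of the 23 members, an SD of 1.02. Its CPM of 15.1, 3.58 and 6.70 came from 211, 85 and 109 counts, and replicate 1 was 4.20 times replicate 2 (3.25 to 5.47). Cdkn1a was at 71.1, 49.6 and 93.7 CPM, with replicate 3 at 1.89 times replicate 2 (1.75 to 2.04). Cdk6 was at 178, 95.2 and 153 CPM, and Cdkn1b at 26.7, 32.6 and 50.5 CPM. Replicate 2 was thus low for Cdkn1a and Cdk6, while Cdkn1b stood out in replicate 3. Ccnd1 was highest in replicate 1, at 1.55 times replicate 2 (1.31 to 1.82) and 1.71 times replicate 3 (1.43 to 2.06). Ccnd3 was also highest there, at 9.50, 8.51 and 5.84 CPM. Rb1 and Cdk4 were steady, with SDs of 0.09 and 0.13, at 136, 148 and 153 CPM and at 20.5, 22.6 and 24.7 CPM. E2f1, whose CPM was 7.99, 12.1 and 9.96, was the only G1 member highest in replicate 2 on this scale. Its interval for replicate 2 over replicate 3 ran from 1.00 to 1.49. In TPM it was highest in replicate 3, at 4.55 against 4.42 in replicate 2.

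The progenitor markers with the most counts went opposite ways. Myb, a factor of dividing progenitors, was highest in replicate 2, with 45, 230 and 26 counts, or 1.26, 2.89 and 0.750 TPM. Kit, the stem cell factor receptor, named here after its values were seen, was lowest there, with 19, 6 and 17 counts, or 1.86, 0.140 and 0.340 TPM. The 9 progenitor markers summed to 3.43, 3.31 and 1.15 TPM, 0 of 9 reached 1 TPM in every library of the gene table, and Gata2 had 0 counts. Replicate 2 also had the least starting RNA, the most counts and the lowest share of mitochondrial counts (0.0738, 0.0215 and 0.0558% in replicates 1, 2 and 3). The part of each of these in the result was not tested.

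Wider lists of the same pathways, chosen by function, give the setting. Among 44 further replication factors, 40 reached 1 TPM in every library. The highest were Rfc2 at 84.4 ± 7.33 TPM, a subunit of the clamp loader, and the origin recognition subunits Orc3 at 71.4 ± 14.7 and Orc4 at 67.4 ± 18.1 TPM. The lowest was the flap nuclease Fen1 at 0.330 TPM. Of the 34 factors with a mean of at least 50 counts, 26 were highest in replicate 2, against 39.6% of protein-coding genes. By at least 1.5-fold, 10 were lower in replicate 1 than in replicate 2 and 0 higher, against 9.10% and 8.53%. In replicate 3 also 10 were lower than in replicate 2 and 0 higher, against 3.85% and 5.10%. Pole, the leading strand polymerase, varied most among them, at 5.06, 14.3 and 6.09 CPM. Replicate 2 was thus its high library, as for the MCM genes.

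Of 9 genes of nucleotide supply, 7 reached 1 TPM in each library. Samhd1, which degrades deoxynucleotides and is known as a restriction factor of myeloid cells, was by far the highest at 1039, 716 and 703 TPM. The thymidine kinase Tk1 followed at 36.6 ± 3.95 and the thymidylate kinase Dtymk at 22.0 ± 5.25 TPM. Of the 8 that passed the count filter, 5 were highest in replicate 1 and 2 in replicate 2, against 32.1% and 39.6% of protein-coding genes. The peak in replicate 2 shared by all 8 replication members was thus not shared by most of this list. With only 8 genes, a departure from the protein-coding shares cannot be judged and was not tested.

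Of 39 further mitotic genes, 25 reached 1 TPM in every library. The highest were the condensin subunit Smc4 at 46.5 ± 8.55, the passenger scaffold Incenp at 40.4 ± 3.22 and the securin Pttg1 at 11.8 ± 5.38 TPM, and the lowest the ubiquitin enzyme Ube2c at 0.0633 TPM. Of 27 with a mean of at least 50 counts, 15 peaked in replicate 2 and 21 were lowest in replicate 1, against 39.6% and 41.2% of protein-coding genes. Cenpa, the centromeric histone, varied most at 5.71, 7.12 and 24.1 CPM, and was high in replicate 3 only.

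Of 15 further G1/S regulators, 8 passed that level. Cdk7, Fbxw7 and Ccnh led at 26.8 ± 4.81, 17.8 ± 4.70 and 16.0 ± 2.44 TPM. Cdk7 and Ccnh form the kinase that activates other cyclin-dependent kinases, and Fbxw7 directs cyclin E to degradation. Cdkn2a, the inhibitor locus linked to senescence, had 0 counts in every library. The 8 genes with enough counts were steady, with a median SD of 0.14, and Fbxw7 was the most variable at 70.8, 55.4 and 72.1 CPM. The list of 18 pocket proteins, E2F factors and MuvB subunits had 16 above it. Rbl1 (p107) and Rbl2 (p130), relatives of Rb1, were at 22.9 ± 7.84 and 22.3 ± 0.236 TPM and the MuvB subunit Rbbp4 at 20.8 ± 2.71, all well under Rb1. E2f7, a repressing E2F factor, was lowest at 1.17 ± 0.782 TPM, and E2f5 varied most at 8.63, 4.97 and 4.49 CPM.

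Part of the TPM of the members lay on transcripts annotated as retaining an intron. Of the 24 members of at least 1 TPM, 17 have such a transcript. In these the median share was 55.1 ± 7.31% of a gene's TPM for 7 replication members, 43.7 ± 20.9% for 5 mitotic members and 51.4 ± 8.73% for 5 G1 members, against 47.2 ± 0.945% over 6330 protein-coding genes. In this first transcript table the mitotic and G1 shares lay within 1 SD of the protein-coding value, and the replication share just over 1 SD above it. The second transcript table gave replication, mitotic and G1 medians of 49.6 ± 2.33, 24.6 ± 4.92 and 51.4 ± 11.3%, against 45.5 ± 0.531%. There the mitotic share lay well below the protein-coding value. Cdk4 stood high and steady at 72.4 ± 3.26%, and Cdk6 low at 10.9%. Pcna was at 60.9 ± 7.04% and Mcm6 at 27.7 ± 5.20%. The second table gave 74.0% for Cdk4, 10.6% for Cdk6 and 56.6% for Pcna, but 47.7% for Mcm6. By counts in place of TPM the class medians were 33.6, 6.89 and 15.5%, against 30.1% for protein-coding genes.

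**Figure D3:**
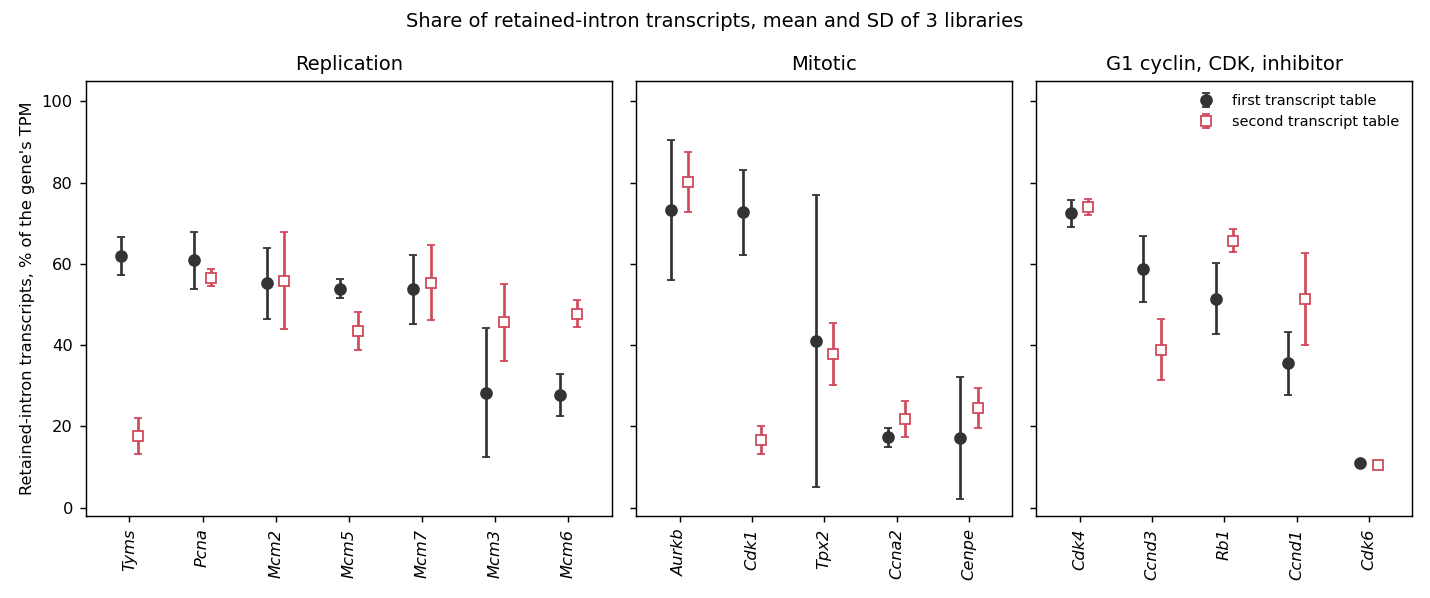
Share of a gene's TPM on retained-intron transcripts (vertical axis, percent; mean and SD of 3 libraries) for the 17 members of at least 1 TPM that have such a transcript, by class. Circles are the first and squares the second transcript table; Cdk4 and Cdk6 keep their places in both, while Cdk1 falls from 72.7 to 16.7% and Tyms from 61.9 to 17.6%.

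The 2 sets of estimates differed most for Birc5, Cdk1 and Tyms. The second table gave a median of 1.46 times the gene table over the 35 members, against 1.37 over protein-coding genes, and was more than 2-fold higher for 8 of 35 (22.9%, against 23.5%). Birc5 was 7.22 times higher there, at 10.2, 6.82 and 8.81 TPM against 1.22, 1.20 and 1.15. Nearly all of it was Birc5-202, a transcript of 3 exons at 8.47 ± 1.70 TPM in the second and 0.623 ± 0.0950 in the first transcript table. Cdk1 was 5.98 times higher, through a protein-coding transcript of 6 exons at 10.6 ± 1.63 TPM against 0.00333. Tyms was 3.96 and Ccnd2 2.78 times higher. For Birc5, Cdk1 and Tyms the 2 sets differed by more than the libraries did within either set.

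Leading protein-coding transcripts were close in both tables for some members and far apart for others. Mki67-201 was at 7.43 ± 1.45 TPM in the first and 5.81 ± 1.02 in the second, Top2a-201 at 2.27 ± 0.0755 and 2.20 ± 0.117, Cenpe-201 at 3.25 ± 0.299 and 2.91 ± 0.327, and Mcm3-201 at 2.44 ± 0.0961 and 2.74 ± 0.141. Tyms-201 was at 0.120 ± 0.115 and 5.65 ± 2.33 TPM, Ccnd2-201 at 0.980 ± 0.838 and 3.95 ± 1.38, Mcm5-201 at 1.53 ± 0.788 and 3.41 ± 0.950, and E2f1-202 at 2.09 ± 0.376 and 4.47 ± 0.745. A Tpx2 transcript, the highest of that gene in the second table, was at 0.297 ± 0.221 and 1.67 ± 0.748 TPM. For Cdkn1a, Cdkn1a-203 led in both, at 28.0 ± 5.57 and 29.5 ± 6.50 TPM, while the longer Cdkn1a-201 was at 24.0 ± 16.7 and 10.5 ± 6.82. The transcripts in this comparison were chosen after their values were seen. In the second table the G1 class still exceeded the mitotic class, by 1.34 log2 units. Its lead over the replication class was 0.47 there, against 0.84 ± 0.53 in the gene table.

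**Figure D4:**
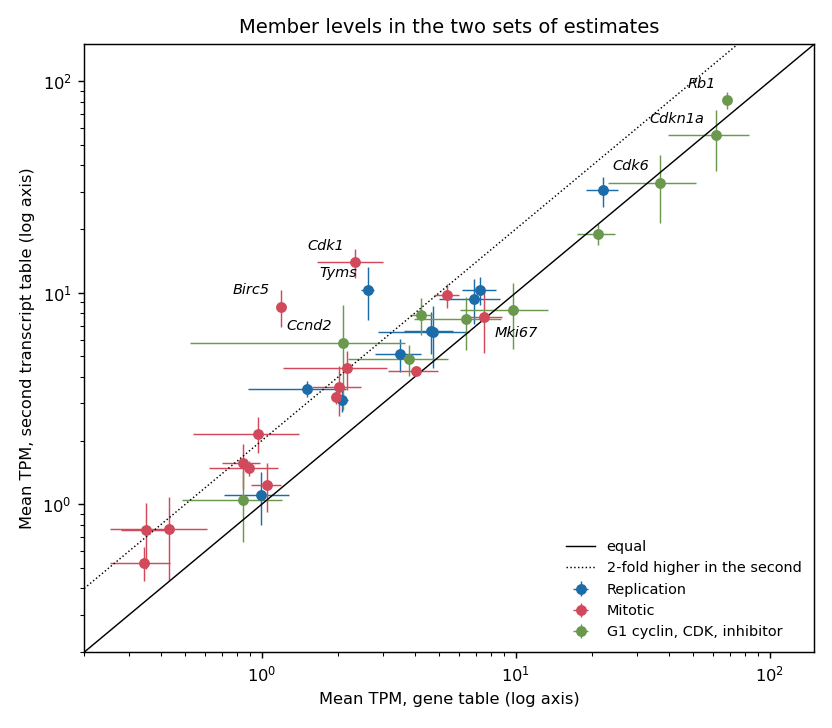
Mean TPM of each member in the gene table (horizontal) and in the second transcript table (vertical), both on log axes, with SDs over 3 libraries and colours for the classes. Most members lie between the line of equality and the dotted 2-fold line, and Birc5, Cdk1 and Tyms lie furthest above it.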

How the data were processed

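Total RNA of the chromatin fraction was measured in 3 libraries of 1 group. The authors' gene tables and first transcript tables hold expected counts, estimates that need not be whole, and TPM, scaled for effective length within a library, per the file headers. The deposited second transcript tables hold another set of estimated counts and of TPM, which were summed per gene. Genome mm10 and GENCODE M21 are named in the notes deposited with the libraries. Column names match RSEM for the first tables and kallisto for the second, but the sources used here give no programs, versions or strand settings. The lower and upper bounds of TPM are the authors', and their level is not stated.

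Genes made up 55536 of the 81881 entries of a gene table. Entries that name no gene took 2.46, 0.484 and 0.327% of counts and stayed out of library sizes. Expected counts summed to 13953780, 24222661 and 16571228 and were rounded. Libraries differed by more than sampling noise (chi-square per degree of freedom 58.9, 40.7 and 29.1), so none was counted as a duplicate. Levels used log2(TPM + 1). Library differences used log2 CPM with TMM factors of edgeR 4.0.16 (1.03, 0.984 and 0.985), a prior count of 2 and a mean of at least 50 counts. Printed CPM and ratios have no prior count, and their 95% intervals are exact binomial (Clopper-Pearson) and cover counting error only. DESeq2 1.42.0 size factors were an alternative. R 4.3.3 and Python 3.11.15 were used, and the step that gives log2 CPM was tested on simulated counts. The members and gene lists were chosen with earlier results of these data known. The text names all 35 members, of each pathway list the 3 highest, the lowest and the most variable gene, and of each marker list the highest and the lowest. In the nucleotide supply list, 1 gene that this rule names is not reported here. Genes named because they overlap a member were chosen after their values were seen. No set test was run.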

Additional observations from a re-analysis of the deposited data

How the results depend on the processing

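With 1 group and 3 libraries every value is a description, and depth limits the mitotic class most, since only 6 of its 15 members had a mean of at least 50 counts. No paired analysis was possible because the series has 1 group. Of 240 recomputed values, 184 stayed within a tolerance and 56 moved, and the cause was not tested. The tolerance was the spread between libraries (between members for median SDs) or 1.5 times the count. Only the class differences and the replication median between replicates 3 and 2 were judged for reversal, and 0 reversed. Medians under 1.5-fold were not judged by sign, and some of these below changed it.

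Class medians of log2 units (replication, mitotic, G1) became 3.04, 1.69 and 4.29 in CPM. With a pseudocount of 0.1 the first 2 were 1.96 and 0.46, and by the second set of estimates 2.87 and 1.99. Over members whose mean reached 1 TPM the mitotic and G1 medians were 1.66 and 3.44. The G1 lead over the mitotic class was 2.60 in CPM, 2.48 with a pseudocount of 0.1 and 1.34 in the second table, and the replication lead over it 1.51 with a pseudocount of 0.1. At a minimum of 5 TPM, 2 replication, 1 mitotic and 5 G1 members passed.

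Leaving out members that overlap another gene, chosen after seeing the data, gave mitotic and G1 medians of 1.11 and 2.39, and G1 leads of 0.12 and 1.28 over the replication and mitotic classes. Its differences between replicates 1 and 2 rest on 1 mitotic member (-0.65) and 2 G1 members (-0.44), and between replicates 1 and 3 the latter gave -0.62. Of the 10 members left, 0 were higher in replicate 1 than in replicate 2 by 1.5-fold, 1 higher and 1 lower than in replicate 3, and 1 higher in replicate 3 than in replicate 2. The 1 mitotic member was highest in replicate 2.

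At 2-fold, 1 member was higher and 2 lower in replicate 1 than in replicate 2, 1 higher and 0 lower than in replicate 3, and 1 higher and 2 lower in replicate 3 than in replicate 2. With no filter on counts, 13 of 35 were lower in replicate 1 than in replicate 2 and 11 than in replicate 3, the mitotic median between replicates 1 and 3 was -0.47, and 7 mitotic members were highest in replicate 2, as were 7 with a mean of at least 10 counts. By the second set of estimates, 5 mitotic and 2 G1 members were highest there, and 3 members were higher in replicate 1 than in replicate 3.

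In deposited TPM, also chosen after seeing the data, the difference between replicates 1 and 2 was -0.17 for replication and 0.65 for G1 members, and that between replicates 3 and 2 was 0.37 for mitotic members. There 2 members were lower in replicate 1 and 2 in replicate 3 than in replicate 2, and 4 replication and 1 mitotic members were highest in replicate 2. After median scaling the mitotic value was 0.08, 2 members were higher in replicate 1 than in replicate 2, and 2 G1 members were highest in replicate 2. Count shares of retained-intron transcripts were 33.6, 6.9 and 15.5%.

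Leaving out each library in turn gave replication, mitotic and G1 medians of 2.11 to 2.41, 1.14 to 1.21 and 3.03 to 3.24. Median SDs ran from 0.23 to 0.43, 0.10 to 0.29 and 0.28 to 0.38.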
